A study of Mus musculus with 4 samples.

Results

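The loci of Cebpa, Cebpb and Cebpd were described by the open chromatin found around them in mouse adipose progenitors, the mesenchymal cells of fat from which new adipocytes arise. Every peak that overlapped a fixed window of the mouse genome build mm9 was taken: chromosome 7 from 35800000 to 36000000 for Cebpa (200 kb), chromosome 2 from 167430000 to 167650000 for Cebpb (220 kb) and chromosome 16 from 15800000 to 15980000 for Cebpd (180 kb). These windows held 162 of the 198854 peaks of the series. Overlapping peaks of different libraries were merged, which gave 60 regions of 83319 in all: 21 in the Cebpa window, 25 in the Cebpb window and 14 in the Cebpd window.

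Accessible DNA was mapped by ATAC-seq: a transposase inserts adapters where chromatin is open, and a peak marks a stretch with many insertions. Progenitors were freshly isolated, with no further treatment, from the fat of C57BL/6 mice aged 16 weeks, 2 libraries from subcutaneous tissue (SAT 1 and SAT 2) and 2 from visceral tissue (VAT 1 and VAT 2). The labels name no markers for the isolation. They do not tell if a depot's 2 libraries are different mice, and p-values here measure only the spread between libraries, which may be technical. Peak lists cannot show whether the cells were progenitors, and cell type markers were not analysed here.

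The C/EBP proteins are leucine zipper transcription factors that bind DNA as dimers. In the textbook course of fat cell formation, C/EBPβ and C/EBPδ appear early after a hormonal stimulus and help to switch on C/EBPα and PPARγ, which then maintain each other and the adipocyte programme. The 3 mouse genes are short and lack introns, so that each window is far wider than its gene. Other genes lie close by: in the gene order of assembly GRCm38, Cebpa has Gm45095 and Cebpg on one side and Slc7a10 and Lrp3 on the other, Cebpb has Tmem189 and Ube2v1 on one side and Ptpn1 and Ripor3 on the other, and Cebpd has Mzt2 and Prkdc on one side and Spidr and Pkp2 on the other. No mm9 annotation was used, so genes were not placed within the windows, and which gene a region serves, or whether it is a promoter, exon or intron, was not analysed here.

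The promoter sequences below are shown because the windows were chosen around these genes and the promoter is where their transcription starts. They come from RefSeq on build GRCm38.p6 (plus strand, the 250 bases before the annotated start, 5′ to 3′), and the mm9 peaks were not placed against them. The table held Cebpa and Cebpb, 2 of the 3 genes, and not Cebpd. Capitals mark the motif letters found on either strand.

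Cebpa: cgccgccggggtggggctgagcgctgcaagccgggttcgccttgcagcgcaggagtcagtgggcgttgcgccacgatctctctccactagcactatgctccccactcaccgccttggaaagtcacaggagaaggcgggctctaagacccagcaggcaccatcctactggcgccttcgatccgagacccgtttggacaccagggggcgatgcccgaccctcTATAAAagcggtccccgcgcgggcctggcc

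Cebpb: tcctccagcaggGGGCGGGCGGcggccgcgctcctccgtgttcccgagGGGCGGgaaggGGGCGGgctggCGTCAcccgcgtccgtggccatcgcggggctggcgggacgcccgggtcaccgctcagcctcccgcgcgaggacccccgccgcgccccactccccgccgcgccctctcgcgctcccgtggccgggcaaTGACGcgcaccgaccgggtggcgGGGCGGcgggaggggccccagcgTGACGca

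The 2 promoters carried different letters. The Cebpa promoter held the TATA box letters TATAAA once, beginning 30 bases before the start, a match found in 12.4% of the 32851 promoters of the table. The Cebpb promoter held GGGCGG, the core of the Sp1 motif, at 5 places, the first 2 of which overlap, and this motif occurred in 32.7% of all promoters. It also held the shortened cyclic AMP response element TGACG at 3 places, 1 of them on the opposite strand, against a share of 17.8% of all promoters with at least 1 match. The full element TGACGTCA (1.55% of all promoters), the E-box CACGTG (6.02%) and the C/EBP letters TTGCNNAA (9.56%) were not in either of these windows of 250 bases. Only these letters were searched, with N for any base, so a site of a looser form would be missed. The share of G and C was 66.4% in the Cebpa and 81.6% in the Cebpb promoter, against a median of 52.4% over all promoters.

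All 3 windows held peaks in every library, and each held regions shared by both depots. Here and below, a region at a named gene means a region of that gene's window, whichever gene it serves. A peak in all 4 libraries was present in 19 of the 60 regions (31.7%), against 23.2% of all merged regions of the genome. By locus, these common regions numbered 4 of 21 at Cebpa, 10 of 25 at Cebpb and 5 of 14 at Cebpd. Common regions of the 3 windows were between 301 and 920 bp wide, with a median of 592 bp, against 524 bp for common regions of the genome. Without SAT 2, whose list is the shortest, 34 regions of the windows were in all other libraries. This looser rule adds the 15 regions missing only from SAT 2 (25%), a class that holds 19.5% of all merged regions. Regions with a peak in 1 library had a median width of 158 bp in the windows and 130 bp in the genome.

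The windows held more regions than most stretches of the genome. The Cebpb window, with 25 regions, exceeded 95.6% of the genome's tiles of 220 kb that hold any region (median 7). The Cebpa window, with 21, exceeded 93.4% of tiles of 200 kb (median 6), and the Cebpd window, with 14, exceeded 83.1% of tiles of 180 kb (median 6). In common regions alone, the 10 of the Cebpb window exceeded 98.3% of tiles, the 5 of Cebpd 89% and the 4 of Cebpa 80.5%. These shares are descriptions and were not tested.

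**Figure D1:**
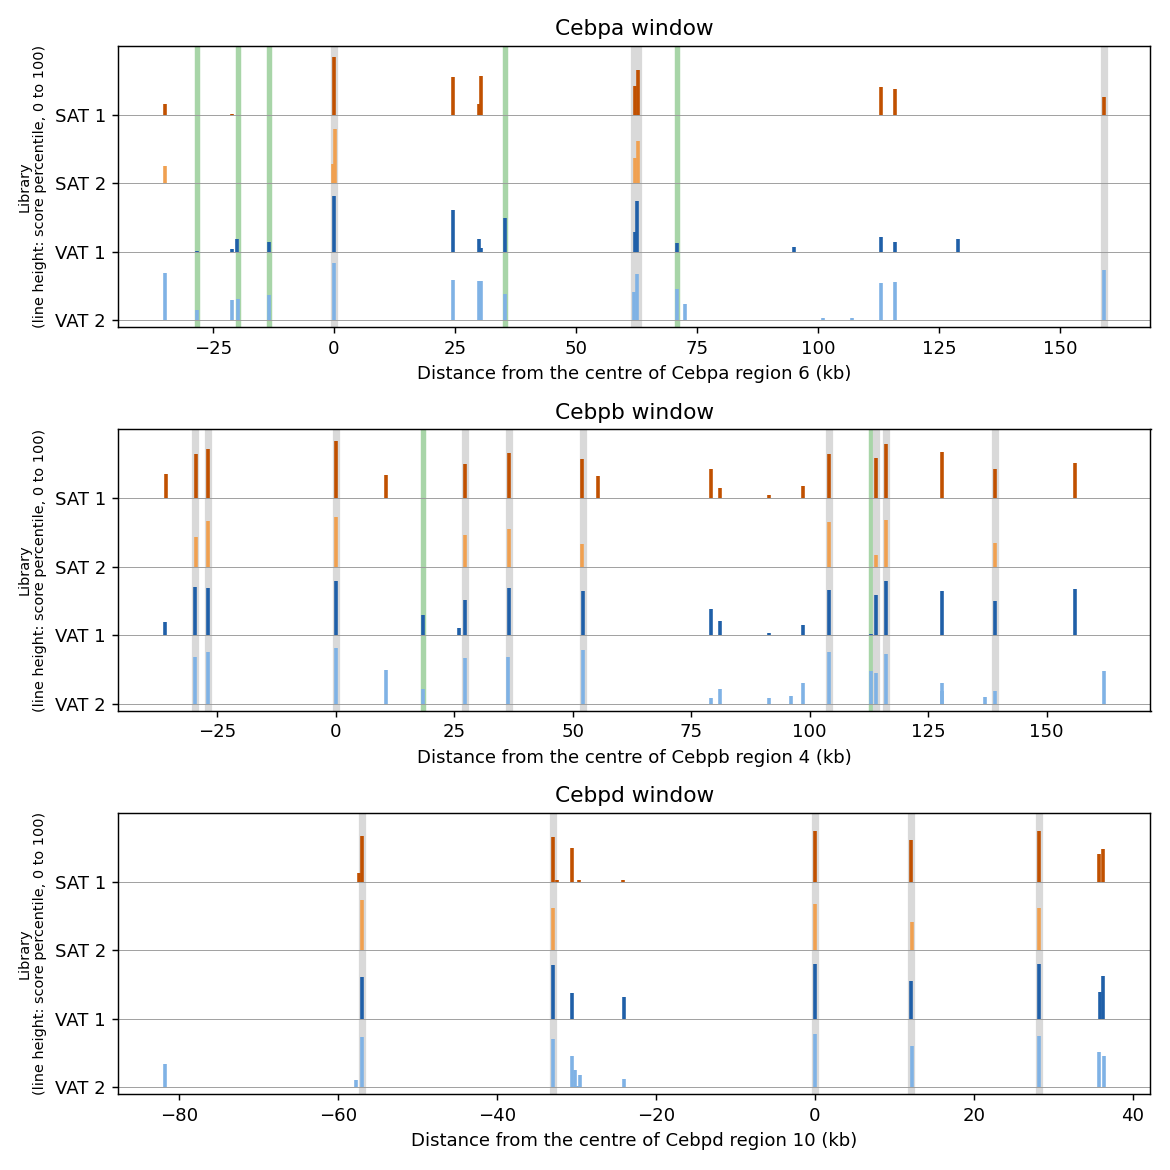
Peaks in the windows of Cebpa, Cebpb and Cebpd, by library (rows), plotted by distance in kb from the centre of the window's leading common region; line height is the score percentile of the peak in its list. Grey bands mark regions with a peak in all 4 libraries and green bands the 7 regions found in both visceral libraries only. At the right edge of the Cebpa window, the peaks of SAT 2 and VAT 1 and the higher SAT 1 peak begin past the edge and are not drawn.

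Each deposited list gives a peak caller's score per peak. Since its scale is not given, a score is reported here with its percentile within its own list, which orders peaks within a library but shows no change between libraries, whose lists differ in length. The regions of each window were numbered along the chromosome, and common regions were ordered by the lowest of their 4 percentiles.

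In the Cebpa window, 1 region stood above all others in every library. Whether it belongs to Cebpa or to a neighbour such as Cebpg was not analysed here. Region 6, on chromosome 7 from 35840957 to 35841876, had scores of 451 in SAT 1, 227 in SAT 2, 408 in VAT 1 and 533 in VAT 2, at percentiles of 98.5, 92.6, 95.9 and 98.7. It was the highest-scoring region of the window in 4 of 4 libraries and the widest of the 19 common regions, at 920 bp. Region 12, from 35903874 to 35904465 and 62.8 kb further along, followed with percentiles of 75.9 in SAT 1, 72.2 in SAT 2, 86.3 in VAT 1 and 80 in VAT 2. It ranked second among the window's peaks in SAT 1, SAT 2 and VAT 1, and below regions 21 and 1 in VAT 2. Beside it, region 11, from 35903338 to 35903725, was open in all libraries at moderate percentiles of 48.9, 43, 33.6 and 47.9 in the same order of libraries.

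The remaining common region of the Cebpa window lay on its far edge. Region 21, from 35999828 to 36000679, had percentiles of 55.2 in SAT 1, 38.7 in SAT 2, 81.6 in VAT 1 and 86.5 in VAT 2. Both visceral percentiles were above both subcutaneous ones, but each belongs to its own list. Its SAT 2 and VAT 1 peaks and the higher of its 2 SAT 1 peaks begin past position 36000000, so that by the peaks inside the window alone it would count for SAT 1 and VAT 2 only. Between regions 6 and 12 lay 3 regions that were missing only from SAT 2. Among them, region 7 (35865751 to 35866371) had a percentile of 64.9 in SAT 1 against 70.9 in VAT 1 and 69.3 in VAT 2.

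The Cebpb window held the most common regions, 10, which lay from 29.6 kb before the leading one to 139 kb after it. The leading one was region 4, on chromosome 2 from 167486840 to 167487388, with scores of 452 in SAT 1, 181 in SAT 2, 343 in VAT 1 and 439 in VAT 2, at percentiles of 98.5, 85.7, 92.5 and 96.4. It scored highest in the window in 3 of 4 libraries. In VAT 1, region 20 (167602861 to 167603568) was slightly higher, at a score of 349, and its percentiles were 92.9 in SAT 1, 79.2 in SAT 2, 92.9 in VAT 1 and 85.5 in VAT 2. These 2 regions are 116 kb apart.

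The next 3 common regions at Cebpb stood between the percentiles of 65.1 and 88.7 in all libraries. Region 3 (167459947 to 167460288) had percentiles of 83.3 in SAT 1, 79 in SAT 2, 81.9 in VAT 1 and 88.1 in VAT 2. Region 17 (167590527 to 167591094) had 75.7, 76.6, 78 and 88.7 in the same order. Region 9 (167523422 to 167523722), at 301 bp the narrowest common region of the 3 windows, had 76.4, 65.1, 81.2 and 80.2. The other 5 common regions (2, 8, 10, 19 and 23) had a lowest percentile between 19.2 and 53.8, and the lowest value came from SAT 2 in 4 of them and from VAT 2 in region 23.

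The Cebpd window held 5 common regions. Region 10, on chromosome 16 from 15920228 to 15920612, led with scores of 242 in SAT 1, 150 in SAT 2, 377 in VAT 1 and 349 in VAT 2, at percentiles of 86.4, 78.3, 94.5 and 92.3. Region 4 (15887117 to 15887798), 33 kb before it, had percentiles of 76.2, 72.2, 91.7 and 83.4 in the same order, and region 12 (15948298 to 15948953), 28.2 kb after it, had 86.2, 71.5, 93.5 and 87.4. In both, as in region 10, the 2 visceral percentiles exceeded the 2 subcutaneous ones, which orders each library's own peaks and is no difference between depots.

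Region 3 of Cebpd (15863071 to 15863701) was ordered differently. Its percentiles were 77.8 in SAT 1, 86.7 in SAT 2, 71.6 in VAT 1 and 87.2 in VAT 2, and in SAT 2 it was the highest-scoring region of the window. Region 11 (15932233 to 15932900) was the weakest of the 5, with percentiles of 70.9, 48.7, 64.9 and 71.2. All 5 common regions of Cebpd, but 7 of the 10 at Cebpb and 2 of the 4 at Cebpa, were still common when each list was limited to its 22845 highest-scoring peaks, the length of the shortest list. Of the regions that such equal-length lists formed, 5 of 6 at Cebpd (83.3%), 7 of 12 at Cebpb (58.3%) and 2 of 10 at Cebpa (20%) were common, against 38.7% in the genome.

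**Figure D2:**
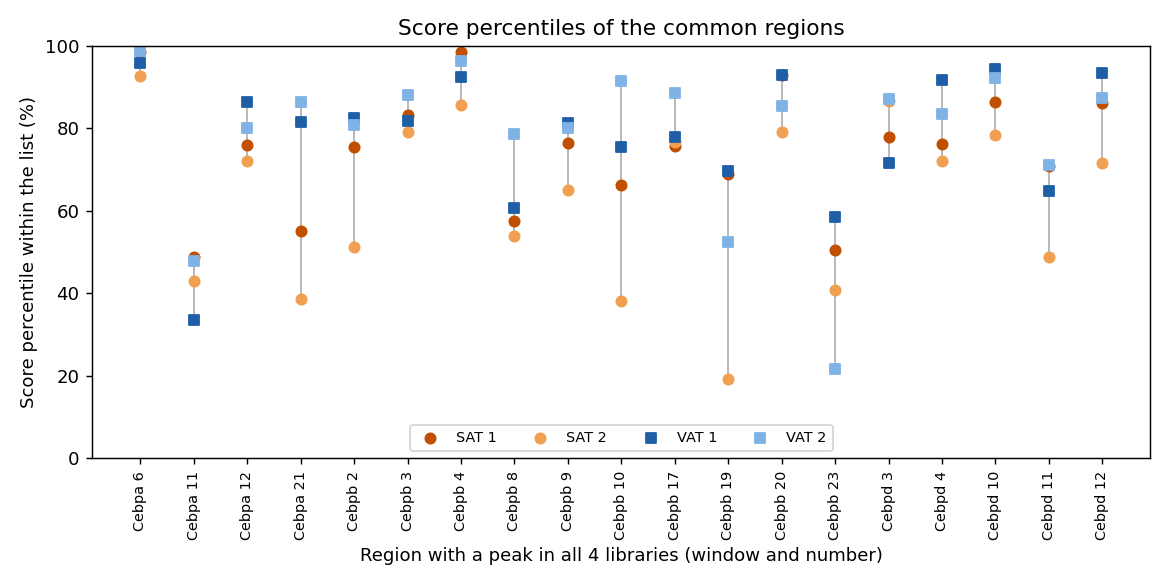
Score percentile within each list (%, vertical axis) for the 19 regions with a peak in all 4 libraries (horizontal axis, window and region number); circles are subcutaneous and squares visceral libraries, and grey lines join the lowest and highest of the 4. Cebpa region 6 and Cebpb region 4 are at 85.7 or more in every library, and the widest spread, from 38.1 to 91.6, is that of Cebpb region 10.

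Common regions of these loci had a median percentile below the genome's in SAT 1 and above it in the other libraries, which was not tested. Their median percentile was 75.9 in SAT 1, 71.5 in SAT 2, 81.6 in VAT 1 and 85.5 in VAT 2, against 80.4, 55.6, 80.3 and 83.5 for all 19350 common regions. Above the genome's median lay 6 of 19 in SAT 1, 11 of 19 in SAT 2, 11 of 19 in VAT 1 and 10 of 19 in VAT 2. Median percentiles, taken over the highest peak of each library in a region, were higher for regions found in more libraries: 13 for 1 library (14 values), 35.8 for 2 libraries (22 values), 40.2 for 3 libraries (48 values) and 78.1 for 4 libraries (76 values).

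Comparing subcutaneous with visceral progenitors, no region of the 3 windows was open in both subcutaneous libraries and neither visceral one. This count of 0 of 60 stands beside 0.110% of all merged regions, and it was 2 without SAT 2 and 1 without VAT 2. Regions open in both visceral and neither subcutaneous library numbered 7 of 60 (11.7%), against 4.60% of all merged regions. They were 5 of 21 at Cebpa, 2 of 25 at Cebpb and 0 of 14 at Cebpd. When 1 library was left out and the other stood for its depot, the count of 7 was 22 without SAT 1 and 16 without VAT 1. These rules are looser than the one behind the 4.60%. The 22 take in regions missing only from SAT 2 (19.5% of all merged regions), and the 16 take in regions of VAT 2 alone (19.6%). No test was made of these shares, since regions are not replicates.

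The 7 regions found in the visceral lists only were narrow and of low to middle rank. At Cebpa, region 10 (35876717 to 35876989) had the highest peak among them, with percentiles of 58.5 in VAT 1 and 45.3 in VAT 2. It lies between regions 6 and 12. Region 13 (35912232 to 35912416), 70.9 kb after region 6, had percentiles of 15.2 and 53.6. The other 3 lay before region 6: region 5 (35827889 to 35828183) with 17.1 and 43.7, region 4 (35821281 to 35821707) with 22 and 36.2, and region 2 (35813181 to 35813342) with 1.75 and 17.3.

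At Cebpb, the visceral-only regions were region 6 (167505500 to 167505679), with percentiles of 35.4 in VAT 1 and 25.3 in VAT 2, and region 18 (167600316 to 167600577), with 1.75 and 56. Region 18 lies next to the common region 19, from which a short gap separates it. In equal-length lists none of the 7 kept a peak: 0 of 7 had a peak in any library, because all of their peaks ranked below the 22845 highest. The count of visceral-only regions in the windows was then 0 of 28, against 1.81% of the genome's regions in such lists, and the subcutaneous-only count was 0 of 28, against 1.50%.

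**Figure D3:**
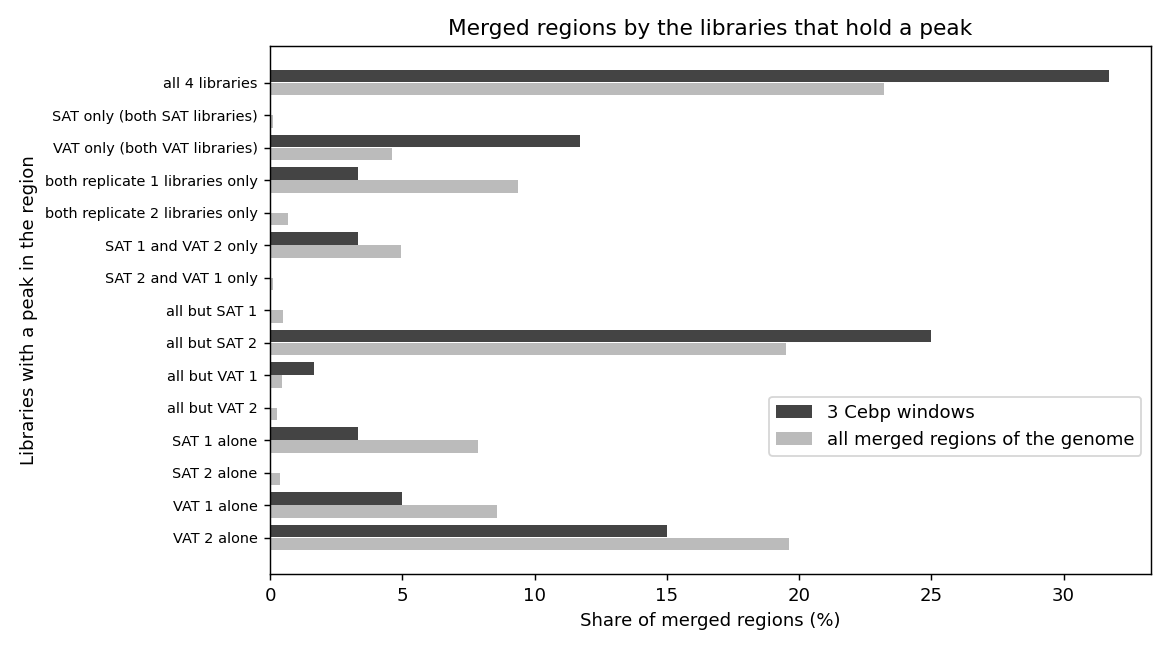
Share of merged regions (%, horizontal axis) by which libraries hold a peak (vertical axis), for the 60 regions of the 3 Cebp windows (dark) and all 83319 merged regions (light), with the full lists. Regions of all 4 libraries are the most frequent class in both, at 31.7% and 23.2%, and the visceral-only class holds 11.7% and 4.60%.

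The number of peaks in each window was higher in the visceral libraries on average, and SAT 2, with the shortest list, had the fewest in every window. The lists held 56823 peaks in SAT 1, 22845 in SAT 2, 56907 in VAT 1 and 62279 in VAT 2. At Cebpa there were 11 peaks in SAT 1, 5 in SAT 2, 16 in VAT 1 and 19 in VAT 2, and the depots did not overlap. The lengths of the whole lists do not overlap between the depots either and have the same order of libraries. The means were 8 ± 4.24 peaks for subcutaneous and 17.5 ± 2.12 for visceral libraries (SD, n = 2 each; two-sided exact permutation test, p = 0.333). That p is the smallest that 2 libraries against 2 can give, so no difference between the depots could pass a threshold of 0.05.

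At Cebpb there were 19 peaks in SAT 1, 10 in SAT 2, 20 in VAT 1 and 22 in VAT 2. The depots again did not overlap, as in the whole lists, but SAT 1 was within 1 peak of VAT 1. The difference of 6.5 peaks between the means gave p = 0.333 in the same exact test. At Cebpd there were 12 peaks in SAT 1, 5 in SAT 2, 9 in VAT 1 and 14 in VAT 2. Here SAT 1 lay between the visceral libraries, and the difference of 3 peaks gave p = 0.667 in the exact permutation test. Without SAT 2 the visceral mean at Cebpd was lower than SAT 1, by a difference of -0.5 peaks.

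**Figure D4:**
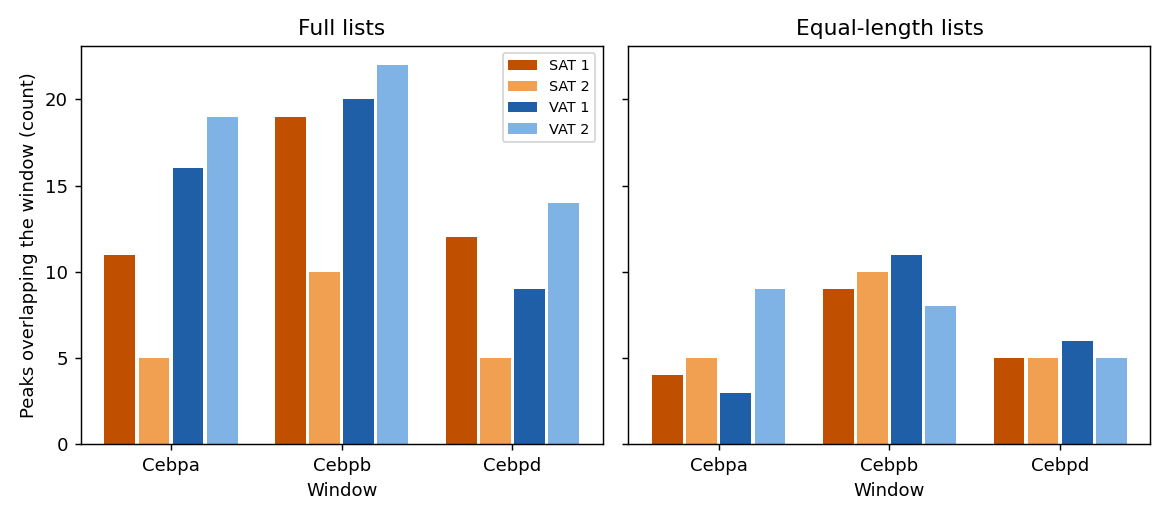
Number of peaks overlapping each window (vertical axis) by window (horizontal axis) and library (bars), with the full lists (left) and with each list limited to its 22845 highest-scoring peaks (right). In the full lists SAT 2 is lowest in every window (5, 10 and 5 peaks), and in equal-length lists it holds 5, 10 and 5 peaks against 3 to 11 in the other libraries.

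Measured against list length, the order of the depots was not the same at the 3 loci. The Cebpa window held 0.0194% of the peaks of SAT 1 (95% Clopper-Pearson interval 0.00966% to 0.0346%), 0.0219% of SAT 2 (0.00711% to 0.0511%), 0.0281% of VAT 1 (0.0161% to 0.0457%) and 0.0305% of VAT 2 (0.0184% to 0.0476%). The intervals, which cover counting error only, overlap for all libraries. At Cebpb the means were 0.0386% for subcutaneous and 0.0352% for visceral libraries, and at Cebpd 0.0215% and 0.0191%, so that at both loci the subcutaneous mean was the higher one, by less than the larger SD of the 2 groups (0.00731 and 0.00471 percentage points). In equal-length lists the peaks at Cebpa numbered 4 in SAT 1, 5 in SAT 2, 3 in VAT 1 and 9 in VAT 2, so that the visceral libraries stood on both sides of the subcutaneous ones.

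The covered length gave the same order of libraries except at Cebpb. Of the Cebpa window, peaks of SAT 1 covered 3355 bp, those of SAT 2 1057 bp, those of VAT 1 3923 bp and those of VAT 2 5381 bp (exact permutation test, p = 0.333). At Cebpb they covered 5971, 2786, 6932 and 6780 bp in the same order (exact p = 0.333), with VAT 1 now above VAT 2. At Cebpd they covered 3717, 1723, 3489 and 5049 bp (exact p = 0.667), and SAT 1 again lay between the visceral libraries. Over the 3 windows together, between 0.928% (SAT 2) and 2.87% (VAT 2) of the sequence lay under a peak.

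The short SAT 2 list was contained in the others. All 20 SAT 2 regions of the windows had a peak in SAT 1 and all 20 in VAT 2, which are 48.8% of the 41 regions of SAT 1 and 37.7% of the 53 regions of VAT 2. With VAT 1 it shared 19, which are 95% of its own regions and 41.3% of the 46 regions of VAT 1. In the genome 93.8% of SAT 2 regions had a peak in SAT 1, 93.8% in VAT 1 and 96.8% in VAT 2. The exception at these loci was Cebpa region 1 (35806422 to 35806731), missing only from VAT 1 (1 of 60, against 0.457% of all merged regions), with percentiles of 17.9 in SAT 1, 29.4 in SAT 2 and 80.6 in VAT 2. A further 15 of the 60 regions (25%) were missing only from SAT 2, against 19.5% of all merged regions. The lists carry no reads per peak, so that sequencing depth is unknown and the absence of a peak is not evidence of closed chromatin.

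By covered bases in the 3 windows, the closest lists were SAT 1 and VAT 1, with a Jaccard index of 0.643 (shared over joint covered bases). SAT 1 and VAT 2 followed at 0.579, and the visceral pair stood at 0.575. The pair of subcutaneous libraries stood at 0.412, above SAT 2 with VAT 1 (0.358) and SAT 2 with VAT 2 (0.321). SAT 2 covered 5566 bp of the windows, which limits its index against any longer list. Of these bases, SAT 1 also covered 5426, VAT 1 5254 and VAT 2 5528. The order of the SAT 2 pairs followed the covered length of the partner (13043, 14344 and 17210 bp), so no depot effect can be read from it. Among the pairs without SAT 2, the visceral pair was not the closest by this index. The index was not computed for the genome, where shares of merged regions were taken instead. In the genome SAT 1 and VAT 1 shared 79.7% of the regions of SAT 1 and 79.2% of those of VAT 1. The visceral pair shared 72.3% of the genome's VAT 1 regions and 65% of those of VAT 2, and the subcutaneous pair 36.6% of those of SAT 1 and 93.8% of those of SAT 2. At Cebpa the Jaccard indices of the 3 pairs without SAT 2 lay close together, at 0.526 (SAT 1 and VAT 2), 0.514 (the visceral pair) and 0.507 (SAT 1 and VAT 1). At Cebpd the index of SAT 1 and VAT 1 reached 0.724.

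Few regions of the windows followed the replicate number, and their shares were not tested. Only in both libraries numbered 1 were 2 of 60 regions (3.33%), against 9.37% of all merged regions, and both lay in the Cebpb window. This count depended on the rule: it was 5 with 50% reciprocal overlap, 3 in the top 50% of each list, 1 with equal-length lists and 0 in the inner part. It was 5 without SAT 1, 4 without VAT 1 and 17 without VAT 2. Leaving out a library loosens the rule, and the 17 take in regions missing only from SAT 2 (19.5% of all merged regions). Region 24 (167642613 to 167643030) had percentiles of 59.3 in SAT 1 and 79.2 in VAT 1, the highest in the windows among regions missing from 2 libraries. Region 1 (167451149 to 167451372) had percentiles of 41.5 and 22. In both libraries numbered 2 only there were 0 of 60 regions, against 0.652% of all, a count that was 1 without SAT 1 and 9 without SAT 2. The 9 take in regions of VAT 2 alone (19.6% of all merged regions). With equal-length lists each replicate number had 1 of 28 regions (3.57%), against 7.35% of the genome's regions for number 1 and 4.4% for number 2. Found only in SAT 1 and VAT 2 were 2 regions (3.33%, against 4.93%), Cebpb region 5 and Cebpd region 8.

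Regions of a single library made up 14 of the 60 (23.3%), against 36.4% of all merged regions. VAT 2, the longest list, held 9 of the 60 alone (19.6% of all merged regions), VAT 1 held 3 (8.58%), SAT 1 held 2 (7.84%) and SAT 2 held 0 (0.360%). The leading one at each locus came from VAT 2: Cebpb region 25 (167649014 to 167649250) at a percentile of 56.5, Cebpd region 1 (15838675 to 15838813) at 39.3 and Cebpa region 14 (35913890 to 35914048) at 28.1.

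Regions were spaced a few kilobases apart, with median gaps of 6.23 kb at Cebpa, 6.71 kb at Cebpb and 5.36 kb at Cebpd. The longest stretch with no peak in any library was 29.2 kb at Cebpa, before its edge region 21, and 26.6 kb at Cebpb, between its common regions 3 and 4. At Cebpd the longest such gap between regions was 23.8 kb, between regions 1 and 2, and the nearest region before the window lay 75.5 kb from its edge. The nearest region after each window began 5.93 kb past its edge at Cebpa (in VAT 1 alone), 9.08 kb at Cebpb and 4.11 kb at Cebpd (both in all 4 libraries).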

How the data were processed

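Sample titles gave the depot and the replicate number. Bowtie2, MACS2 and build mm9 are named, per the submitters' processing notes, without versions; options, duplicate handling and repeat filters are not given in the sources used. Replicates were not pooled, since every library has a list of its own. The authors deposited 1 score per peak, in whole numbers from 20 upward, on a scale that no header names. This score served only to order and filter peaks inside 1 list.

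Peaks overlapping by at least 1 bp were merged over the genome, and a region counted for a window if 1 of its peaks overlapped it. Percentiles count tied scores at their mean rank. Values per library were compared by a two-sided exact permutation test. The named regions are the leading 5 common regions of each window, every region restricted to a depot or a replicate number and the leading region of a single library; further regions were chosen for naming once their values had been seen. The windows, genes and lists were chosen with earlier results of these data known. The alternatives were equal-length lists, the top 50% of each list, 200 bp around each centre, 50% reciprocal overlap, merging within 500 bp, the inner part of each window, a percentage of the list, each library left out and a replicate block. Other C/EBP family and adipogenic genes and protein identity had been planned and were not analysed here, since no mm9 annotation or protein table was used. Merging was tested on simulated data and against bedtools 2.31.1. Python 3.11.15, numpy 2.4.6, pandas 2.3.3 and scipy 1.17.1 were used.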

Additional observations from a re-analysis of the deposited data

How the results depend on the processing

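The direction of the depot difference in covered length held in all settings run, though the replicate block could not have changed it. The settings included equal-length lists, but covered length was not scaled by list length. At Cebpd the difference was 552 bp without SAT 2, against 1549 bp with all libraries. For peaks, the Cebpa difference stayed positive, whereas with equal-length lists that at Cebpb was 0. As a percentage of the list the difference was -0.00337 at Cebpb and -0.00236 at Cebpd. With a replicate block the difference was 9.5 peaks at Cebpa and 6.5 at Cebpb (exact sign-flip test, p = 0.5, the smallest possible). At Cebpd it was 3 peaks (exact p = 1), and in covered length the differences were 2446, 2478 and 1549 bp. These values equal those without the block by construction, since each replicate number has 1 library per depot. The block is therefore no check on their size, and with p no lower than 0.5 its test could not call a difference. Over all merged regions, SAT 1 and VAT 1 deviated together from their depot means (correlation 0.231), but nothing in the labels says that a number marks a shared animal or day. Leaving out 1 library gave 6.5 to 12.5 peaks at Cebpa, 2 to 11 at Cebpb and -0.5 to 6.5 at Cebpd, the lowest value in each case without SAT 2.

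The 19 common regions became 11 in the inner part of the windows, and 18 to 34 with 1 library left out, the highest without SAT 2. The 7 visceral-only regions became 0 with equal-length lists, 0 in the top 50% and 3 in the inner part, and 7 to 22 with 1 library left out: 22 without SAT 1, 16 without VAT 1, 10 without VAT 2 and 7 without SAT 2. The subcutaneous-only count of 0 became 2 without SAT 2 and 1 without VAT 2, and was 0 otherwise. Regions in both libraries numbered 1 only (2) became 1 with equal-length lists, 5 with 50% reciprocal overlap, 0 in the inner part and 2 to 17 with 1 library left out, the highest without VAT 2. Those numbered 2 only (0) became 1 with equal-length lists and 0 to 9 with 1 library left out, the highest without SAT 2. Leaving out a library loosens these rules by construction, and shorter lists and windows hold fewer peaks. The depth of the libraries is unknown, which limits every statement on a missing peak.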
